A study of Mus musculus with 4 samples.

Results

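The Meis, Pknox and Pbx genes were examined in RNA-seq libraries of mouse embryonic stem cells (mESCs). They encode transcription factors of the TALE homeobox family. The 8 members, *Meis1*, *Meis2*, *Meis3*, *Pknox1*, *Pknox2*, *Pbx2*, *Pbx3* and *Pbx4*, were chosen by name from the 37310 genes of the count table, and all 8 were found. The family was chosen because *Meis1* is strongly reduced in these same libraries, so its values are given as a description with no test. The other 7 members entered as its paralogs and partners, with results of these libraries known. The libraries were 2 from the HATX WT line and 2 from clone 2 of the *Spen* KO made in that line. Both lines carry a doxycycline-inducible *Xist* transgene, both were grown in serum and LIF, the labels give no treatment, and the strain is labelled as a mixed genomic background. The study describes haploid cells, and ploidy was not measured here. The KO deletes most or all of *Spen*, which encodes an RNA-binding repressor. Each group is 1 line, so differences between the lines other than *Spen* cannot be told apart from the deletion, and p-values measure only the spread between libraries of 1 line.

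TALE homeodomain proteins have a short extra loop between the first helices of the homeodomain. PBX proteins bind DNA together with HOX proteins and with MEIS or PKNOX (PREP) proteins, and the MEIS or PKNOX partner controls whether PBX enters the nucleus. These complexes pattern the hindbrain, limbs, eye and heart, *Meis1* is also known from blood stem cells and leukaemia, and *Meis* genes are induced by retinoic acid as pluripotent cells differentiate.

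The part of the homeobox that encodes the third helix, which contacts DNA, is shown because it sets the MEIS, PKNOX and PBX genes side by side. The lines below give 30 bases of the coding strand from the GENCODE vM1 transcripts (5′ to 3′), with bases that differ from *Meis1* in capitals.
Meis1: tggtttattaatgcccggagaagaatagtg
Meis2: tggtttatCaatgccAgAagaagaatagtg
Meis3: tggtttattaatgcccggagaCgaatagtg
Pknox1: tggttCatCaaCgcGAgAagaCgaatTCtC
Pknox2: tggttCatCaatgccAggagGCgCatCCtg
Pbx2: tggttCGGtaaCAAGcgAaTTCgCTACAAg
Pbx3: tggtttGGCaaCAAAcgAaTCagGTACAAg
Pbx4: tggtttGGCaaCAAAAgAaTCCgGTACAAA

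*Meis3* differed from *Meis1* at 1 of these bases and *Meis2* at 3, against 8 and 10 for the *Pknox* genes and 16 to 19 for the *Pbx* genes. Over the whole homeobox of 189 bases, *Meis2* and *Meis3* matched *Meis1* at 84.1% and 84.7% of positions, *Pknox1* and *Pknox2* at 65.1% and 69.8%, and the *Pbx* genes at 44.4% to 50.8%. Of all 50-base windows in the members' exons, between 0% (*Meis3*, *Pknox2*, *Pbx2* and *Pbx3*) and 1.99% (*Meis2*) were also found elsewhere in the mm9 genome.

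Total counts per library ranged from 36667685 to 61908422. At gene level *Spen* was higher in the libraries labelled KO (7797 and 6242 normalised counts, WT 3716 and 3047), and a count over the whole gene does not show whether the deleted part is missing. The label was therefore not checked here, and the group is called KO-labelled below. All 10 markers of mESCs were expressed in every library, with a summed level of 1819 to 1844 RPKM (reads scaled to exon length in kilobases and to the library total) in WT and 1831 to 1942 in the KO-labelled group. None was lower by DESeq2 (0 also at an unadjusted p under 0.05 and by edgeR) and 2 were higher, *Zfp42* (log2 fold change 0.23) and *Tcfcp2l1*, the older symbol of *Tfcp2l1* (0.52), where 16.4% of all genes tested were higher and 15.8% lower. Low counts were even far more often than odd. Between 64.0% and 66.5% of counts from 1 to 20 were even, against 49.5% to 51.5% of counts of at least 1000. Whether both reads of a pair were counted is not stated, so the number of separate fragments behind a low count is not known.

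Within the MEIS genes the paralogs did not move together. *Meis1* was nearly lost in the KO-labelled libraries, *Meis2* fell, and *Meis3* rose. The highest members, *Pknox1* and *Pbx2*, had log2 fold changes of -0.04, smaller than their errors. Among the 7 members other than *Meis1*, all had an adjusted p, and at an adjusted p under 0.05 (DESeq2) 2 were lower and 1 was higher, where 15.8% of the 17710 genes tested were lower, 16.4% were higher and 32.3% were either. Their median log2 fold change was -0.04, beside 0.005 over all genes tested. With 7 genes, counts of 2 and 1 are near that background.

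**Figure D1:**
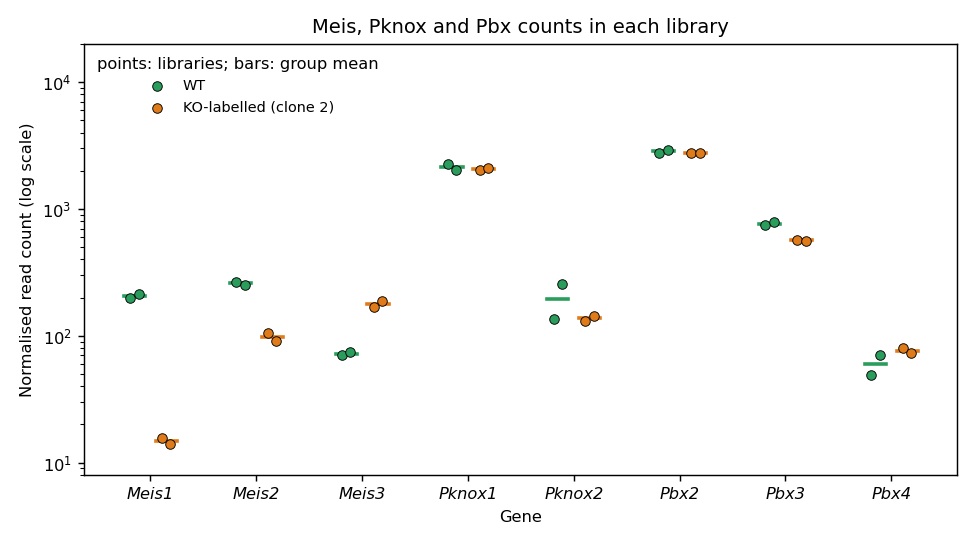
Normalised read counts (log scale) of the 8 members, with a point for each library and a bar for each group mean (n = 2; WT in green, KO-labelled in orange). *Meis1* and *Meis2* are lower in both KO-labelled libraries than in both WT libraries, *Meis3* is higher, and *Pknox1* and *Pbx2* stay together.

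*Meis1* (ENSMUSG00000020160.10; chromosome 11, 18780433 to 18918961, minus strand, mm9) is the founding MEIS gene. It had 149 and 197 raw counts in WT and 18 and 18 in the KO-labelled libraries, or 198 and 215 against 15.7 and 14.1 normalised counts. Both KO-labelled libraries were thus far below both WT libraries, while reads were still present. The means were 206 ± 12.0 and 14.9 ± 1.12 (SD, n = 2), and the log2 fold change was -3.79 ± 0.39 (SE), or 13.9-fold lower, on a chromosome whose genes had a median of 0.16. It ranked as number 53 of the 17710 genes tested from the most reduced. A pair of genes overlap *Meis1* on the opposite strand, and 12.12% of its exonic bases lie in exons of *Gm16140*. *Gm16140* had 0 counts in all 4 libraries, and *Gm16141* had 3 in 1 WT library and 0 in the others.

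*Meis2* (ENSMUSG00000027210.11; chromosome 2, 115688800 to 115891575, minus strand) encodes a paralog that acts in limb, heart and brain development, and overlaps no other gene. Its normalised counts were 266 and 253 in WT and 104 and 90.8 in the KO-labelled libraries. These groups did not overlap, and the mean fell from 260 ± 9.79 to 97.6 ± 9.70 (SD, n = 2). On the log2 scale the change was -1.41 ± 0.26 (SE), and DESeq2 gave an adjusted p of 8.58e-07. It passed the test at 0.05 in each of the 11 alternatives tried, between -1.52 and -1.31 with adjusted p of at most 0.00629.

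*Meis3* (ENSMUSG00000041420.9; chromosome 7, 16760729 to 16771853, plus strand), which acts in hindbrain patterning, moved the other way. Its normalised counts were 70.3 and 74.1 in WT and 169 and 186 in the KO-labelled libraries, again with no overlap. The mean rose from 72.2 ± 2.68 to 178 ± 12.3 (SD, n = 2), or by 1.30 ± 0.31 (SE) on the log2 scale, and DESeq2 gave an adjusted p of 0.000235. Over the alternatives it stayed between 1.20 and 1.37. Without KO-labelled replicate 2 the log2 fold change was 1.23 and the adjusted p 0.0607. The study's own thresholds are stricter, a 2-fold change together with an adjusted p below 0.001. There *Meis2* was called lower and *Meis3* higher, where 3.15% of all genes tested were lower, 1.36% were higher and 4.51% were either. With halved counts (added after seeing the data) or a replicate block, *Meis3* missed these thresholds (DESeq2 adjusted p = 0.00365 and 0.00591). *Meis2* stayed past them in both fits (9.13e-05 and 0.000189).

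In the main fit *Meis2* and *Meis3* were called at the study's thresholds, and *Meis1* is the gene the family was chosen for. The 250 bases upstream of the start sites of these 3 MEIS genes are therefore shown. They are given 5′ to 3′ on the gene's strand (RefSeq, GRCm38.p6) with CG dinucleotides in capitals. *Meis1* lies at chr11:19018970-19019219 (minus), *Meis2* at chr2:116064620-116064869 (minus) and *Meis3* at chr7:16175145-16175394 (plus).
Meis1: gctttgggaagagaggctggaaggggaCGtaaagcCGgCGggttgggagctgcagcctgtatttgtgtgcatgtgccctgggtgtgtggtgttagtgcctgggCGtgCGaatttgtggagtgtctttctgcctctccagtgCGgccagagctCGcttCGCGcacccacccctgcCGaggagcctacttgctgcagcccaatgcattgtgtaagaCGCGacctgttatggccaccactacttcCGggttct
Meis2: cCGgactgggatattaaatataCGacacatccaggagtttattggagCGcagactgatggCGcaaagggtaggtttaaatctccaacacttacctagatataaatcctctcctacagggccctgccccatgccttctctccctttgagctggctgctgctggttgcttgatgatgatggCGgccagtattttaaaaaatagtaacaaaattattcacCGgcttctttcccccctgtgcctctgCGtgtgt
Meis3: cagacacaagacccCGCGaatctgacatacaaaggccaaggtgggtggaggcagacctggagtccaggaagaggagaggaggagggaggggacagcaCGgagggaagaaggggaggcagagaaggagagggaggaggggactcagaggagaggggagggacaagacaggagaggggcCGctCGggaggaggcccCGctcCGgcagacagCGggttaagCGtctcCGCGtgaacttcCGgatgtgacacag

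Of the 8 members, 5 were in that promoter table. *Meis1*, *Meis2* and *Meis3* had 13, 7 and 12 CG dinucleotides, *Pbx4* had 12 and *Pbx2* 27, against a median of 6 over 32851 promoters. The MEIS motif TGACAG, searched on both strands, was in none of the 5, and in 15.9% of all promoters. The PBX motif TGATTGAT was also in none of them, and in 0.67% of all promoters.

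The PKNOX genes, which encode the other class of PBX partner, showed no change past the test. *Pknox1* (chromosome 17, 31701718 to 31744638) had 2242 and 2029.9 normalised counts in WT and 2035 and 2111 in the KO-labelled libraries, which overlapped. Its log2 fold change was -0.04 ± 0.10 (SE; 95% interval -0.24 to 0.15; adjusted p = 0.806), and it was 0.09 with chromosome medians removed. *Pknox2* (chromosome 9, 36698570 to 36954899) had 135 and 255 in WT and 131 and 143 in the KO-labelled libraries. WT libraries differed from each other more than the groups did, and the log2 fold change of -0.51 ± 0.32 (SE; adjusted p = 0.229) was 0.03 without WT replicate 2 and -0.89 at its lowest.

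Among the PBX genes, which encode the shared DNA-binding partners of HOX, MEIS and PKNOX proteins, *Pbx3* alone passed the test of the 3 members. *Pbx3* (chromosome 2, 34026977 to 34228660) had 741 and 793 normalised counts in WT and 569 and 560 in the KO-labelled libraries, without overlap. It fell by 0.44 on the log2 scale (SE 0.14; adjusted p = 0.00812). With any 1 library left out the value was -0.49 to -0.39 and the adjusted p 0.079 (without WT replicate 1), 0.209 (WT replicate 2), 0.122 (KO-labelled replicate 1) and 0.141 (KO-labelled replicate 2), so its call rests on all 4 libraries. *Pbx2* (chromosome 17, 34728211 to 34734345) had 2771 and 2923 in WT and 2774 and 2778 in the KO-labelled libraries. These overlapped, and its log2 fold change of -0.04 ± 0.09 (SE; 95% interval -0.21 to 0.13; adjusted p = 0.809) was 0.10 with chromosome medians removed. *Pbx4* (chromosome 8, 72356523 to 72397062) had 49.1 and 70.8 in WT against 80.1 and 72.8. These did not overlap although the gene missed the test, so a lack of overlap between 2 and 2 libraries does not by itself mark a change. The log2 fold change was 0.35 ± 0.42 (SE; 95% interval -0.48 to 1.17; adjusted p = 0.598), which leaves a change of 2-fold upward inside the interval. *Gpsm3* shares 227 exonic bases with *Pbx2* on the same strand and had a log2 fold change of 0.16 (adjusted p = 0.705).

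**Figure D2:**
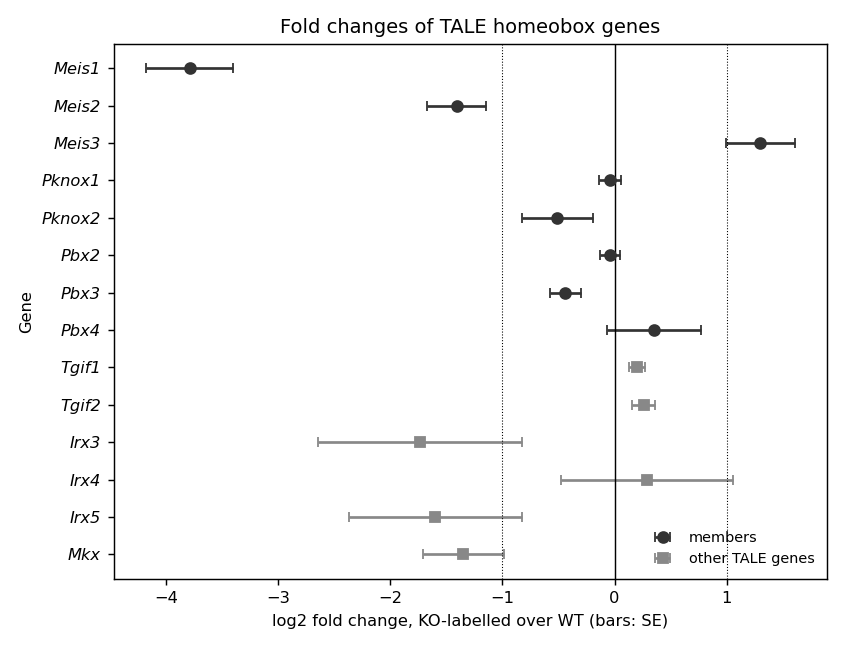
Log2 fold changes (KO-labelled over WT) with standard errors for the 8 members (circles) and for the other TALE genes named here (squares). Dotted lines mark a change of 2-fold. *Meis1* lies at -3.79 and *Meis2* at -1.41, *Meis3* lies at 1.30, and *Pknox1* and *Pbx2* lie at -0.04.

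Levels were then compared between genes per length, over the union of each gene's exons. In WT the order by mean RPKM was *Pbx2* (16.2), *Pknox1* (10.5), *Pbx3* (2.49), *Pknox2* (1.15), *Meis3* (0.823), *Meis1* (0.579), *Meis2* (0.454) and *Pbx4* (0.422). *Pknox2* and *Meis3* were not separated by their libraries, nor were *Meis2* and *Pbx4*. In the KO-labelled libraries *Meis3* (2.03) came above *Pbx3* (1.84), and *Meis1* (0.0419) stood last, below *Meis2* (0.171). *Pknox2* and *Pbx4* were at 0.808 and 0.539 between them. The order depended on the length. Over the longest transcript the WT means were 5.58 for *Pbx3*, 1.25 for *Meis1*, 1.16 for *Pknox2*, 0.979 for *Meis2* and 0.841 for *Meis3*, so *Meis3* stood below the other MEIS genes. In the KO-labelled libraries *Pbx3* (4.11) then stood above *Meis3* (2.07), and *Meis1* (0.0904) was last on both lengths.

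Among the 8 members most RNA was *Pbx2* and *Pknox1*, which together made 80.5% to 83.3% of the summed RPKM in all 4 libraries, and 72.9% to 78.1% over the longest transcript. The summed level of the 5 MEIS and PKNOX genes was 13.5 and 13.5 RPKM in WT and 13.1 and 13.5 in the KO-labelled libraries, a ratio of 0.983. With the longest transcript as the length, this ratio was 0.922. For the 3 *Pbx* genes the sums were 18.4 and 19.9 against 18.4 and 18.1, a ratio of 0.953. With 2 libraries against 2 a two-sided exact permutation test cannot give a p below 1 in 3, so no p is given for these sums.

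Within the 3 MEIS genes the shares differed between the groups. *Meis3* made 44.0% and 44.7% of their summed RPKM in WT and 89.5% and 91.5% in the KO-labelled libraries. *Meis1* made 30.4% and 31.9% in WT, then 2.0% and 1.7%. *Meis1* and *Meis2* together went from 1.01 and 1.05 RPKM to 0.229 and 0.197. Whether the total of the 3 went up or down depended on the length used. Its ratio of KO-labelled to WT was 1.21 over the union of exons and 0.826 over the longest transcript, since *Meis1* has 7394 exonic bases but a longest transcript of 3428, while *Meis3* has 1820 and 1781. On the longest transcript *Meis3* made 27.1% and 27.7% in WT and 80.1% and 83.5% in the KO-labelled libraries, so its share was higher in the KO-labelled libraries on both lengths. Since *Meis1*, chosen for its fall, is part of the total, some of this rise in share is set by that choice, and the shares are a description.

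**Figure D3:**
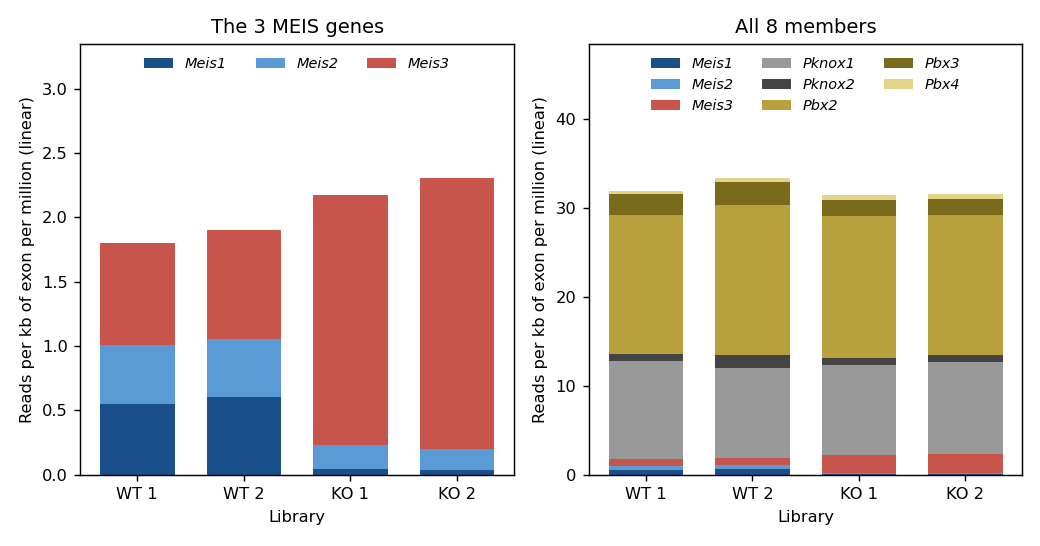
Stacked levels in RPKM (linear, from 0) in each library (WT 1 and 2, KO-labelled 1 and 2), for the 3 MEIS genes on the left and all 8 members on the right. On the left *Meis3* grows from 44.0% and 44.7% to 89.5% and 91.5% of the stack, and on the right *Pbx2* and *Pknox1* fill 80.5% to 83.3% of every stack.

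The rest of the TALE family was examined next. Of 9 other TALE genes 7 had an adjusted p, of which 1 fell and 2 rose at the looser threshold (adjusted p under 0.05), near the 15.8% and 16.4% of all genes tested. *Mkx* (Mohawk, a tendon regulator) had 130 and 134 normalised counts in WT and 47.9 and 55.6 in the KO-labelled libraries, and fell by 1.35 on the log2 scale (SE 0.36; adjusted p = 0.000934). Its groups did not overlap, and it was also past the study's thresholds, where 3.15% of all genes tested were lower. With halved counts or a replicate block *Mkx* missed those thresholds (DESeq2 adjusted p = 0.0102 and 0.014). With 1 library left out the *Mkx* adjusted p was 0.0587 (without WT replicate 1), 0.0824 (WT replicate 2) and 0.0648 (KO-labelled replicate 1), and the call was lost in these fits but held without KO-labelled replicate 2 (0.0262). The TGIF genes, which encode SMAD and retinoic acid corepressors, were the most abundant of this list. *Tgif1* rose from 7381 and 7892 to 8876 and 8728 normalised counts (log2 fold change 0.20, adjusted p = 0.0182), and *Tgif2* from 1535 and 1584 to 1929.5 and 1808 (0.26, adjusted p = 0.0358). Both calls were lost without WT replicate 1 (adjusted p = 0.256 and 0.248), KO-labelled replicate 1 (0.166 and 0.326) or KO-labelled replicate 2 (0.134 and 0.134), and that of *Tgif2* also without WT replicate 2 (0.167) and with chromosome medians removed (0.294). The IRX genes were low. *Irx3* and *Irx5* had log2 fold changes of -1.74 and -1.60 that missed the threshold (adjusted p = 0.139 and 0.0981; 0.0357 and 0.0198 by edgeR), and *Irx4* was at 0.29 (adjusted p = 0.831).

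No neighbour of *Meis1* had a change of its size. Of the 3 nearest protein-coding genes on each side, at 905.4 to 1645.2 kb, *Etaa1*, *C1d* and *Wdr92* had log2 fold changes of 0.05, -0.15 and 0.20 that missed the threshold, and *Spred2*, *Actr2* and *Rab1* rose by 0.23, 0.34 and 0.26 (adjusted p = 0.0412, 8.36e-06 and 0.00209). Around *Meis2*, *Spred1* at 1055.5 kb fell by 0.64 (adjusted p = 3.52e-14), while *BC052040*, *Atpbd4*, *Zfp770* and *Fam98b* had values from -0.23 to 0.03 that missed the threshold, and *Tmco5* had 2 reads in all. Beside *Meis3*, *Dhx34*, at 10.6 kb, moved the opposite way and fell by 0.79 (adjusted p = 1.82e-08). *Slc8a2*, *Kptn* and *Napa*, at 14.9 to 57.4 kb, had values of -0.25, 0.07 and -0.12 that missed the threshold, and *Gpr77* and *C5ar1* were at or near 0 counts.

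**Figure D4:**
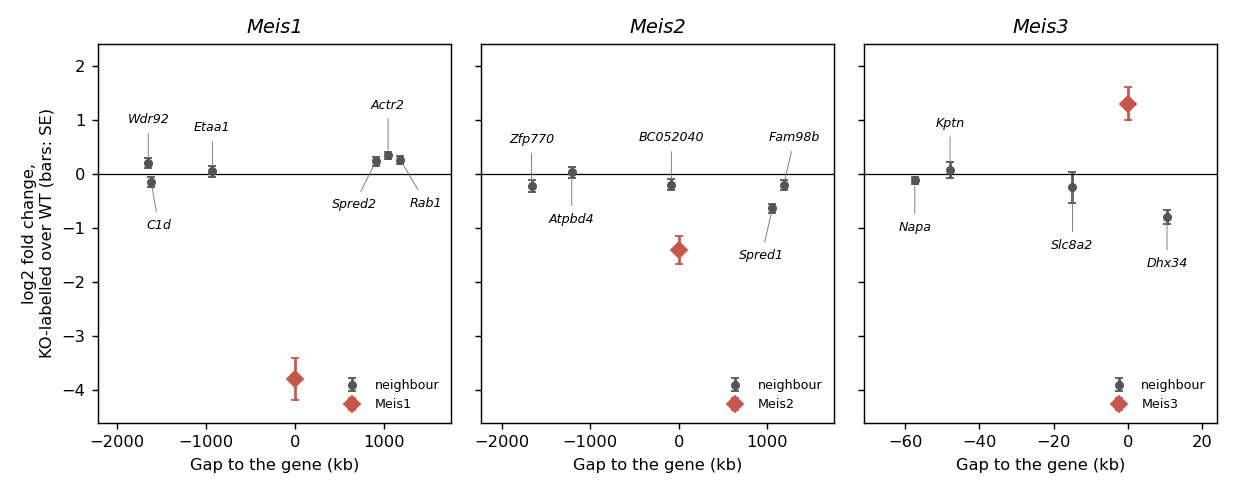
Log2 fold changes (KO-labelled over WT, bars SE) of *Meis1*, *Meis2* and *Meis3* (diamonds at 0 kb) and of the nearest protein-coding genes with an adjusted p (circles), by the gap in kb to lower (negative) or higher (positive) coordinates. *Meis1* lies at -3.79 while its 6 neighbours lie between -0.15 and 0.34.

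The genes whose pattern over the 4 libraries was most like that of *Meis1* were *Pls3*, *T*, *Gm9*, *Gm10664* and *Gna14*. Likeness was the Euclidean distance of log2 counts centred on each gene's mean, over 11910 genes with a mean of at least 100, and these 5 were at distances of 0.235 to 0.377. *T* (brachyury, the primitive streak factor) had 378 and 425 normalised counts in WT and 27.9 and 32.1 in the KO-labelled libraries, and *Pls3*, an actin bundler on the X chromosome, 3015 and 3045 against 275 and 263. With 4 libraries in 2 groups this measure mostly ranks genes by their fold change.

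HOX genes, the main partners of PBX proteins in DNA binding, were mostly low. Of 39, 18 had an adjusted p, 1 was lower and 0 were higher by DESeq2 (2 and 0 at an unadjusted p under 0.05, 3 and 0 by edgeR), or 5.56% lower, where 15.8% of all genes tested were lower and 16.4% higher. The summed level was 6.19 and 5.88 RPKM in WT and 4.80 and 5.22 in the KO-labelled libraries, and the median log2 fold change was -0.34. The lower gene was *Hoxd9*, with 23.9 and 17.4 normalised counts in WT and 3.48 and 3.13 in the KO-labelled libraries (log2 fold change -2.64, adjusted p = 0.0355). With any 1 library left out (WT replicate 1 or 2, KO-labelled replicate 1 or 2) no HOX gene was called, among 6 to 8 then tested.

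Of 11 other partners and cofactors, 0 were lower and 1 was higher by DESeq2 (1 lower at an unadjusted p under 0.05, and 2 lower by edgeR), where 15.8% and 16.4% of all genes tested were. *Crtc2*, a CREB coactivator, rose from 798 and 1060 to 1315 and 1197 normalised counts (log2 fold change 0.43, adjusted p = 0.0105), and the call was lost, to a count of 0, without WT replicate 1, KO-labelled replicate 1 or KO-labelled replicate 2. The median over the list was -0.07.

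Among 7 genes described as targets of MEIS or PBX factors 2 were lower and 1 higher at the looser threshold, where 15.8% and 16.4% of all genes tested were. *Pax6*, the eye and forebrain regulator and also one of the neural markers below, fell from 420 and 480 to 89.7 and 89.2 normalised counts (log2 fold change -2.33 ± 0.23, SE; adjusted p = 3.25e-23). *Trib2*, a pseudokinase downstream of MEIS1 in leukaemia, fell from 382 and 320.2 to 66.2 and 92.3 (-2.14 ± 0.26; adjusted p = 1.17e-14). Both were also past the study's thresholds, where 3.15% of all genes tested were lower. With any 1 library left out 2 genes of the list were lower. *Epas1*, which encodes HIF-2α, rose by 0.28 on the log2 scale (adjusted p = 0.00911), a call lost, to a count of 0, without WT replicate 1 or either KO-labelled replicate. Binding was not measured, so whether these genes are targets in mESCs was not tested.

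Genes of the retinoic acid pathway, the signal that induces *Meis* genes, included calls in both directions. Of 10 genes 3 were higher and 3 lower, where 16.4% and 15.8% of all genes tested were, and the median was -0.41. *Stra6*, a retinol transporter, rose from 15.9 and 19.6 to 122 and 103 normalised counts (log2 fold change 2.65 ± 0.47, SE; adjusted p = 3.07e-07). *Crabp2*, a carrier of retinoic acid, rose by 1.81 ± 0.20 (adjusted p = 1.47e-17), and *Stra8*, a meiosis gene, by 1.80 ± 0.12 (adjusted p = 3.73e-51). The 3 higher genes were past a 2-fold change and an adjusted p under 0.001, as 1.36% of all genes tested were. *Cyp26a1*, which degrades retinoic acid, and *Rarb*, a receptor, fell by 2.07 and 1.53 (adjusted p = 0.0225 and 0.0257), and *Nrip1*, a nuclear receptor corepressor, fell by 0.43 (adjusted p = 0.00906). With any 1 library left out 3 genes of the list were higher. The count of lower genes dropped to 1 without WT replicate 1 and to 0 without WT replicate 2, KO-labelled replicate 1 or KO-labelled replicate 2.

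**Figure D5:**
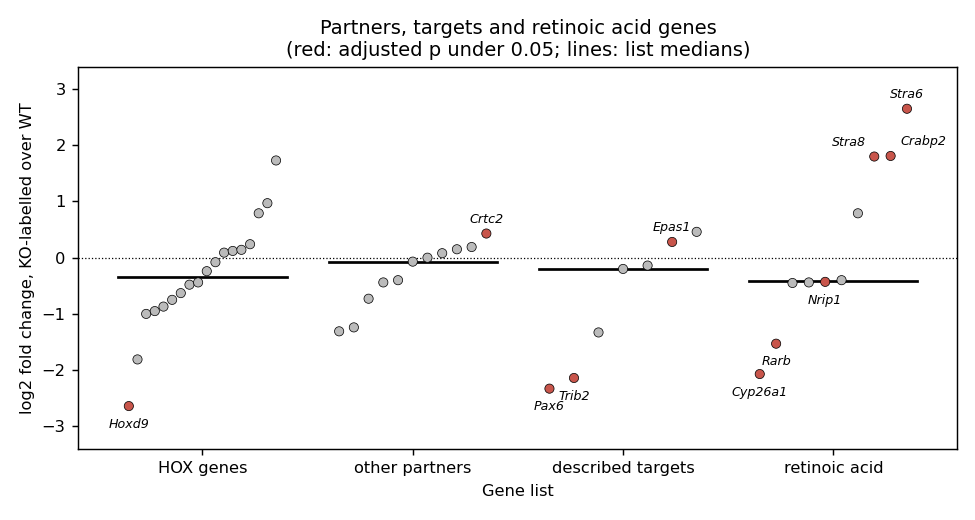
Log2 fold changes (KO-labelled over WT) of genes with an adjusted p in 4 lists, each sorted by value, with genes at an adjusted p under 0.05 in red and list medians as lines. The medians were -0.34 (HOX), -0.07 (other partners), -0.20 (described targets) and -0.41 (retinoic acid), and *Stra6*, *Stra8* and *Crabp2* stand above 1.

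Of 4 lists of markers of differentiated cells, mesoderm, primitive endoderm and neural markers had lower sums in both KO-labelled libraries than in both WT libraries, and fibroblast markers had higher sums that rested on *Thy1* (15.8% of all genes tested were lower and 16.4% higher). Mesoderm markers summed to 8.08 and 8.27 RPKM in WT and 3.16 and 3.47 in the KO-labelled libraries, with 3 of 6 tested lower (*T*, *Eomes* and *Kdr*) and 0 higher by DESeq2, at an unadjusted p under 0.05 and by edgeR. Most of that sum was *T* (3.36 and 3.85 against 0.253 and 0.286) and *Eomes* (3.26 and 3.21 against 1.65 and 1.64), while *Mixl1* and *Tbx6* had log2 fold changes of 0.56 and 0.31 that missed the threshold (adjusted p = 0.479 and 0.677). Primitive endoderm markers summed to 2.70 and 3.00 against 1.41 and 1.12, with 3 of 5 lower by DESeq2 (*Gata4*, *Sox7* and *Cubn*; 4 at an unadjusted p under 0.05 and 4 by edgeR) and 0 higher by all 3. Of neural markers 2 of 5 tested were lower (*Pax6* and *Mtap2*) and 1 higher (*Elavl3*), and the sums of 91.9 and 93.4 against 88.1 and 90.3 were mostly *Tubb3*, a neuronal tubulin (85.9 and 87.7 against 82.9 and 85.3). Without it they were 6.02 and 5.72 against 5.22 and 5.06. Fibroblast markers, listed because *Meis1* is expressed in such cells, summed to 2.42 and 2.96 against 4.98 and 5.56. Of 5 tested, *Thy1* was higher and *Twist1* lower by DESeq2, and 2 were higher and 1 lower by edgeR. Without *Thy1*, a surface glycoprotein, the sums were 1.02 and 1.30 against 0.672 and 0.637, the opposite direction. Most of that remainder was *Twist1* (0.861 and 1.04 RPKM in WT against 0.464 and 0.380). *Col1a1* went the other way, with 21 and 20 raw counts in WT against 57 and 61. Its log2 fold change of 0.98 missed the threshold (DESeq2 adjusted p = 0.188). The genes *Col1a2*, *Col3a1*, *Dcn*, *Lum*, *Postn*, *Twist2* and *Prrx1* had at most 12 counts in any library. No marker was at 0 in all 4 libraries. In bulk RNA fewer cells of a type and less RNA per cell cannot be told apart, and the part of these markers in the *Meis* values was not tested.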

How the data were processed

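RNA-seq libraries (2 WT, 2 KO-labelled) were stranded and rRNA-depleted. The authors mapped paired reads to mm9 with STAR and counted them over genes of GENCODE vM1 by featureCounts. The deposited table holds these raw counts, not normalized. Versions, strand setting and handling of multi-mapping reads are not given in the sources used here. The table had 0 columns without a sample, and depth was 36667685 to 61908422 counts per library.

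Counts were tested over the whole table with DESeq2 1.42.0 in R 4.3.3 (design of group, default size factors, Benjamini-Hochberg adjustment), the study's tool and thresholds (fold of at least 2, adjusted p under 0.001), with an adjusted p under 0.05 as the looser rule. Leave-one-out fits assume that the lone library of a group varies like the others. RPKM used counts, totals and the union of exons in the vM1 annotation. edgeR 4.0.16 (quasi-likelihood), TMM and upper-quartile factors, a filter of at least 10 counts in at least 2 libraries, the replicate number as a block and removal of chromosome medians were alternatives, and halved counts were added after seeing the data. The DESeq2 and edgeR fits were also run on counts simulated from the DESeq2 fit, which checks the code and not the design of 1 line per group.

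Members and lists were chosen with earlier results of these data known. Named were the members, Spen, TALE genes with a mean of at least 10, genes overlapping a member, the 3 nearest protein-coding genes on each side of members past the study's thresholds, the 5 genes most like Meis1, and up to 3 genes per direction with the smallest adjusted p in each other list (HOX, other partners, described targets, retinoic acid, and mESC, mesoderm, primitive endoderm, neural and fibroblast markers). Tubb3, Mixl1, Tbx6, Col1a1 and the low fibroblast markers fall outside this rule and were named after their values were seen. Some listed genes are not reported here and were left out of the list counts. Of 10 neural markers 9 were in the annotation. Where a symbol had several identifiers, the one with the highest mean was used.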

Additional observations from a re-analysis of the deposited data

How the results depend on the processing

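At an adjusted p under 0.05 the 7 members other than *Meis1* gave 2 lower and 1 higher. Requiring a 2-fold change and an adjusted p under 0.001 left 1 lower, and leaving out single libraries gave 1 lower in every case and 0 to 1 higher. Sharing a replicate number did not make libraries deviate together (correlation of deviations -0.018 over 13306 genes). In the fit with a replicate block 1 member was lower, since *Pbx3* had an adjusted p of 0.0659. Of the other lists, 0 TALE genes were higher, 0 HOX genes lower, 0 targets higher and 0 retinoic acid genes lower. edgeR called 3 other TALE genes, 3 HOX genes and 2 other partners lower. The low-count filter gave 2 lower HOX genes, and removing chromosome medians left 1 higher other TALE gene. Halved counts, added after seeing the data, left 1 higher other TALE gene, 0 lower HOX genes and 1 lower retinoic acid gene. Leaving out single libraries gave 0 to 1 higher and 0 to 1 lower other TALE genes, 0 to 0 lower HOX genes, 0 to 1 higher other partners, 0 to 1 higher targets and 0 to 1 lower retinoic acid genes, with fewer genes tested. Over the longest transcript the ratio of the summed MEIS and PKNOX level was 0.922. Where no reason is given, the cause was not tested.

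Signs changed in 3 members that had not passed the test, and in *Irx4*. *Pknox1* was 0.09 with chromosome medians removed and ranged from -0.11 to 0.03 with single libraries left out. *Pknox2* ranged from -0.89 to 0.03. *Pbx2* was 0.00 with upper-quartile factors, 0.10 with chromosome medians removed and -0.07 to 0.01 with single libraries left out. *Irx4* ranged from -0.10 to 0.73, and was -0.05 without WT replicate 2. *Meis1* stayed between -3.96 and -3.71. Depth limits low genes first, and 18 of 39 HOX genes had an adjusted p.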
